A study of Mus musculus with 32 samples.

Results

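Genes of muscle calcium handling, 6 of the 54838 in the count table, were followed in RNAseq libraries of tibialis anterior (TA) muscle from Mtm1 knockout (KO) and wild-type (WT) mice: the pumps Atp2a1 and Atp2a2, the pump inhibitors Sln and Pln, and the calcium binding proteins Pvalb and Casq2. They were chosen by name, and all 6 were found in the table and passed the filter on low counts in every comparison. The mice model X-linked myotubular myopathy, a congenital muscle disease in which the phosphatase myotubularin is lost. Each of the 8 groups held 4 libraries, namely Mtm1 WT and Mtm1 KO at days 1, 14, 21 and 35 after birth (P1, P14, P21 and P35). All mice had the strain background C57BL6/J and no treatment is given; the KO allele carries a deletion in exon 4 of Mtm1 and is not limited to muscle, and the line was first made in the 129S2PAS background and bred onto C57BL6J. The labels call the tissue skeletal muscle and the methods name the TA, which in the mouse is a mostly fast muscle.

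Relaxation of a muscle fibre follows the return of calcium from the cytosol to the sarcoplasmic reticulum (SR), which is done by the SERCA pumps. Atp2a1 encodes SERCA1 of fast fibres and Atp2a2 encodes SERCA2, whose main muscle form is found in slow fibres and heart. Sarcolipin (Sln) and phospholamban (Pln) are very small membrane proteins that bind the pump and lower its activity, parvalbumin (Pvalb) binds calcium in the cytosol of fast fibres, and calsequestrin 2 (Casq2) binds it in the SR lumen of heart and slow muscle, where Casq1 does so in fast muscle.

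Both inhibitors have very short coding sequences, which are shown because Sln carried the largest KO difference among the 6 genes. They are given in the transcript sense from GENCODE M21 (GRCm38), with the start and stop codons in capitals. The Sln frame at chr9:53853473-53853568 (+) has 96 bases and 31 codons before the stop, and the Pln frame at chr10:53343864-53344022 (+) has 159 bases and 52 codons and is the same in 6 annotated transcripts.
Sln: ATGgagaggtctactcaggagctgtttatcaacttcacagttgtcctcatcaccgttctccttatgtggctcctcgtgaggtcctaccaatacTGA
Pln: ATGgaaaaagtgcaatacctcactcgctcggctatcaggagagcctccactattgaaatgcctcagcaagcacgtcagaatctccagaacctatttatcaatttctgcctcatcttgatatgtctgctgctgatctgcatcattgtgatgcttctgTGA

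The genes lie on 6 chromosomes of GRCm38: Atp2a1 at chr7:126445858-126463108 (-), Atp2a2 at chr5:122453513-122502225 (-), Sln at chr9:53850164-53854560 (+), Pln at chr10:53337667-53345987 (+), Pvalb at chr15:78191114-78206400 (-) and Casq2 at chr3:102086415-102146514 (+). The Pln gene overlaps Cep85l on the opposite strand that had 26.8 to 171 CPM. The sources used here do not say if strand entered the counting, so Pln values are uncertain.

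Promoter windows are shown for 3 genes that moved with age, as described below: Atp2a1 and Pvalb, which both rose after birth, and Casq2, which fell. Pln also rose, and its window is described but not shown. The windows run from 250 bases before to 50 bases after the RefSeq gene start (GRCm38.p6), which was held for 4 of the 6 genes, and capitals mark E-boxes (CANNTG) and matches to the MEF2 consensus, read on both strands. The windows are Atp2a1 chr7:126463024-126463323 (-), Pvalb chr15:78206351-78206650 (-, the first of 2 Pvalb starts) and Casq2 chr3:102086165-102086464 (+).
Atp2a1: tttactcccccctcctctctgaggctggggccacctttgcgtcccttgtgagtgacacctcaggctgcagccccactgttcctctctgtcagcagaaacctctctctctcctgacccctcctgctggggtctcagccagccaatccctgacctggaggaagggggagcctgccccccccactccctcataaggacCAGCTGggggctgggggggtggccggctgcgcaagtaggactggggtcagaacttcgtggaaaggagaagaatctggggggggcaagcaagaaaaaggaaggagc
Pvalb: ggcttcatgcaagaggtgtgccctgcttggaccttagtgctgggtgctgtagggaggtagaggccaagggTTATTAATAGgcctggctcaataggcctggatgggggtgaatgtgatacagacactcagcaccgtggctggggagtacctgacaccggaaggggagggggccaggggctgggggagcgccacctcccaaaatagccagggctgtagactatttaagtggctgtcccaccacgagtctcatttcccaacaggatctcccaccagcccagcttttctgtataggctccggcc
Casq2: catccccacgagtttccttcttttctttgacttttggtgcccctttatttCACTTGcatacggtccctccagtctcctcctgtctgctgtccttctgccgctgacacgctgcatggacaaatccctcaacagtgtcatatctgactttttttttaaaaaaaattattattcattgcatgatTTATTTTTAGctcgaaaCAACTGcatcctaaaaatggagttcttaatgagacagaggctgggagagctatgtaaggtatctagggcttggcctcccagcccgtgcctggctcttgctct
A MEF2 match began at base -180 of the Pvalb window and at base -69 of the Casq2 window, and 1.86% of 32851 promoter windows held one. The Atp2a1 window held 1 E-box at base -55 and the Casq2 window held 2, at bases -200 and -52, while 72.3% of all windows held at least 1. The Pln window and the window of the second Pvalb start, which are not shown, each held 2 E-boxes and no MEF2 match. Further motifs were searched on both strands. None of the windows held a CArG box (1.63% of all windows). TATAAA (13.6% of all windows) occurred in the Pln window. GGAAA (61.3%) occurred in windows of all 4 genes, though not in that of the second Pvalb start. These are matches of letters only.

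Library totals ran from 49321035 to 85631408 counts. Mtm1 itself followed the labels: its level was 5.26 to 6.02 CPM in WT and 2.32 to 3.91 CPM in KO at P1, and 18.9 to 24.9 CPM in WT against 2.64 to 4.51 CPM in KO at the later ages. CPM are counts scaled to a common library size by TMM, which sets a factor so that most genes agree between libraries. KO replicate 4 at P1 stood apart from the other KO libraries of that age, with Mtm1 at 3.91 CPM, the fast myosin gene Myh4 at 13.2 CPM against 47.4 to 138 CPM, and Atp2a1 at 1328 CPM. WT replicate 4 at P21 stood apart with the slow myosin gene Myh7 at 512 CPM against 82.2 to 136 CPM in its group. Fast fibre genes (8 genes) summed to 57538 CPM or more in every library after P1. The heart genes Nppa and Nppb were under 0.1 CPM in all libraries, with Myl7 and Mybpc3 also under it after P1. Other genes of the heart list (8 genes) were present. The list summed to 106 to 151 CPM at P1 and to 8.38 to 42.4 CPM later, and Myh6 had 3.32 to 24.5 CPM. Keratinocyte genes (6 genes) summed to 1515 to 5798 CPM at P1 and to 2.46 to 6.28 CPM later; their part in the changes from P1 to P14 was not tested. In a whole muscle, fewer cells of a type and less RNA per cell cannot be told apart.

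Called below means an adjusted p under 0.01 and a fold change over 1.5 in either direction (0.585 on the log2 scale) by edgeR's quasi-likelihood test, fitted on all genes. By this rule KO was higher than WT in 0 of the 6 genes at P1 and likewise at P14, in 1 gene at P21 (Sln) and in 2 genes at P35 (Sln and Atp2a2), and lower in 0 genes at each age. Over all genes tested, 0.0442% were called at P1, 0.0318% at P14, 4.67% at P21 (3.18% higher), and at P35 8.49% were called higher and 7.52% lower. Ranges of CPM in WT and KO had no overlap for 0, 1, 2 and 3 of the 6 genes, against 8.73%, 4.82%, 25.4% and 39.6% of all genes tested. The ranges of the 6 genes used TMM over all 32 libraries, and the shares of all genes used TMM over the 8 libraries compared. The median log2 fold change of the 6 genes was 0.01, 0.10, -0.22 and 0.18, beside 0.01, 0.00, 0.01 and 0.04 over all genes. Scaled by library totals in place of TMM, the median over all genes became 0.04, 0.09, 0.20 and 0.44, so that fold changes at P21 and P35 are relative to that shift.

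**Figure D1:**
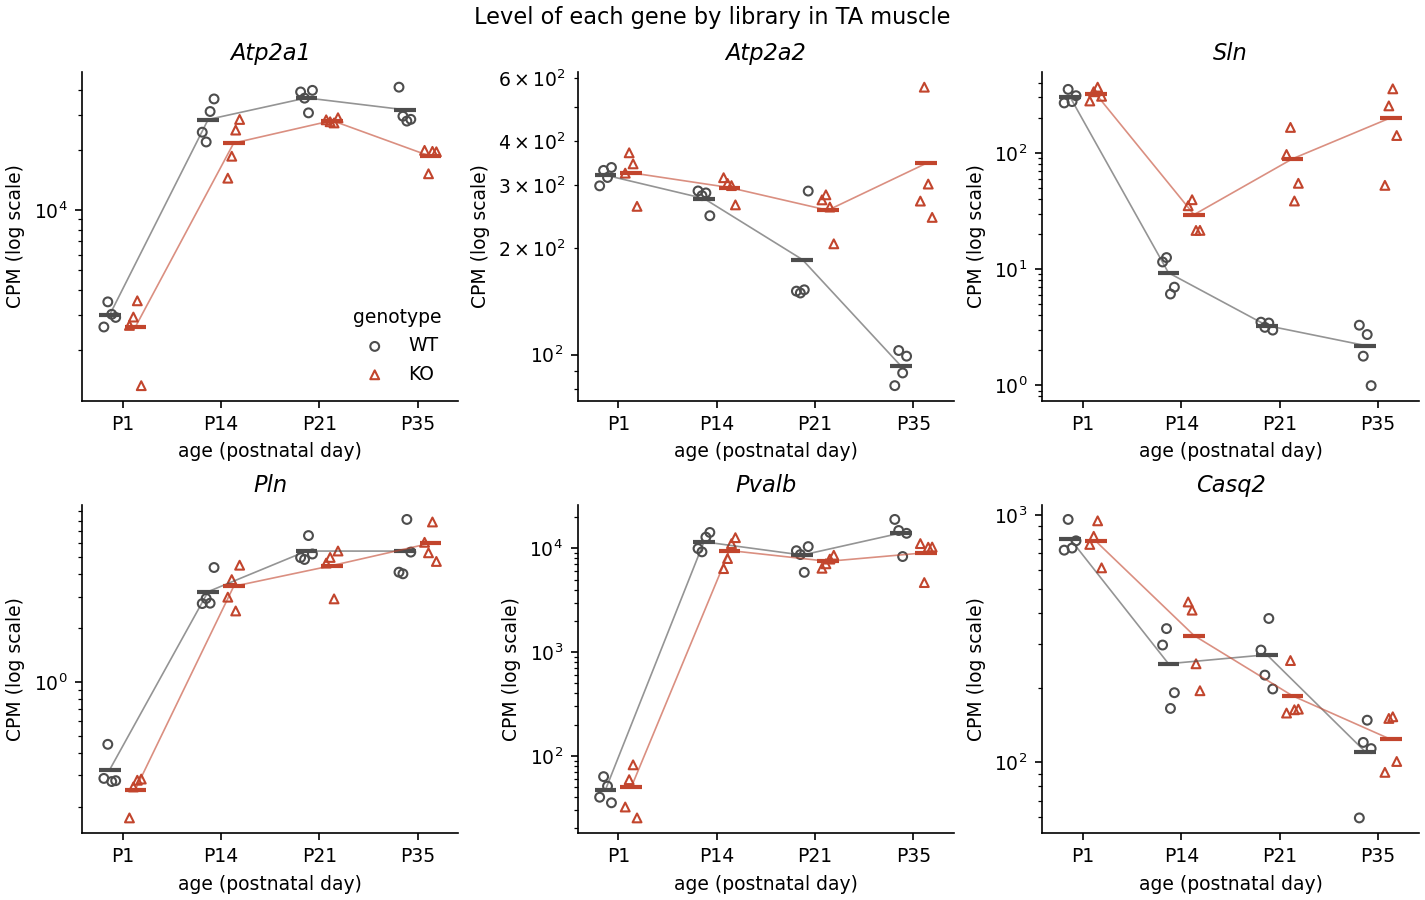
CPM on a log axis for each of the 6 genes in every library, with WT as circles and KO as triangles at each age; thick bars are group means of 4 libraries and thin lines join them. The WT and KO series of Sln part from P14 on, those of Atp2a1 at P21 and P35 and those of Atp2a2 at P35. Those of Pln, Pvalb and Casq2 overlap at every age.

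Sln, the inhibitor gene, fell in WT muscle after birth and stood far higher in KO muscle from P21 on. At P1 its level was 268, 351, 276 and 310 CPM in the WT libraries, against 279, 335, 367 and 306 CPM in those of KO. At P14 it was 11.5, 12.5, 6.09 and 6.98 CPM in the WT libraries, against 35.0, 39.5, 21.5 and 21.5 CPM in those of KO, so that every KO library was above every WT library. At P21 WT libraries had 3.49, 3.15, 3.43 and 2.98 CPM, as against 96.6, 165, 38.5 and 54.6 CPM for KO. By P35 the WT libraries had 3.29, 1.78, 2.73 and 0.992 CPM, which stands for 43 to 135 counts, and the KO libraries had 52.5, 253, 355 and 141 CPM. The groups overlapped at P1 and at no later age; the KO libraries of P35 spread from 52.5 to 355 CPM.

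The log2 fold change of Sln between KO and WT was 0.11 ± 0.11 (SE, adjusted p = 0.741) at P1. It was 1.66 ± 0.29 at P14, a 3.15-fold higher level that did not pass the threshold (adjusted p = 0.124). Same-numbered WT and KO libraries deviated together at P14, though the labels state no pairing. A fit that took them as pairs by a replicate block gave 1.67 ± 0.05 (adjusted p = 1.57e-07), past the threshold. That fit called 98 of 15728 genes, and its pairs were inferred from these same data. DESeq2 also called Sln (adjusted p = 8.81e-06). Sln was higher in KO than in WT by 27.4-fold at P21 (log2 fold change 4.78 ± 0.45, adjusted p = 0.000334) and by 92.9-fold at P35 (6.54 ± 0.66, adjusted p = 0.000149). Without any 1 library, the log2 fold change ran from 4.28 to 5.03 at P21 and from 6.10 to 6.85 at P35, and each of these fits called it. The order of the group means was KO P1, WT P1, KO P35, KO P21, KO P14, WT P14, WT P21 and WT P35; neighbours overlapped except KO P14 against WT P14 and WT P14 against WT P21.

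Atp2a2, the SERCA2 gene, had no called difference at P1, P14 or P21 and was called higher in KO at P35. Its level at P1 was 299, 331, 316 and 337 CPM in the WT libraries, against 325, 371, 345 and 262 CPM in those of KO. At P14 it was 289, 281, 286 and 246 CPM in the WT libraries, against 315, 304, 300 and 264 CPM in those of KO. At P21 it was 151, 149, 152 and 289 CPM in the WT libraries, against 273, 282, 261 and 205 CPM in those of KO; 3 WT libraries were below every KO library and replicate 4 was above all of them. At P35 it was 81.8, 103, 88.8 and 99.1 CPM in the WT libraries, against 271, 567, 303 and 244 CPM in those of KO, with no overlap. With TMM scaling, the WT groups thus went from 321 ± 16.9 CPM (SD, n = 4) at P1 to 93.1 ± 9.57 CPM at P35. The KO groups went from 325 ± 46.4 to 346 ± 149 CPM. This course in KO depends on the scaling. With library totals, WT libraries had 463 to 515 CPM at P1 and 59.9 to 76.8 CPM at P35. KO libraries then had 444 to 566 CPM at P1 and 234 to 595 CPM at P35. Of the latter, all but replicate 2 lay below every P1 library.

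The log2 fold change of Atp2a2 was 0.04 ± 0.11 at P1 (SE, adjusted p = 0.916) and 0.10 ± 0.08 at P14 (adjusted p = 0.926). At P14 KO was above WT in 4 of 4 same-numbered pairs, and the replicate block gave 0.10 ± 0.04 (adjusted p = 0.201). How many of all genes had 4 of 4 pairs on the same side was not counted, here or for the members and ratios below. At P21 the log2 fold change of Atp2a2 was 0.47 ± 0.22 (adjusted p = 0.152), and without WT replicate 4 it was 0.77 ± 0.11 (adjusted p = 0.00347), past the threshold. At P35 Atp2a2 was 3.79-fold higher in KO than in WT (log2 fold change 1.92 ± 0.25, adjusted p = 0.000458). Without KO replicate 2, the library at 567 CPM, the value was 1.57 (adjusted p = 7.52e-05). In the order of group means with TMM scaling, KO P35 came first and WT P21 and WT P35 last. Only the step from WT P21 to WT P35 had no overlap between neighbours. With library totals KO P35 came after both P1 groups.

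Atp2a1, the SERCA1 gene of fast fibres, had lower means in KO at each age but was not called at any. At P1 it had 2608, 3483, 3019 and 2912 CPM in the WT libraries, against 2657, 2924, 3526 and 1328 CPM in those of KO. At P14 it had 24549, 21944, 31153 and 36001 CPM in the WT libraries, against 14462, 18621, 25159 and 28432 CPM in those of KO; the ranges overlapped, and KO was below WT in 4 of 4 same-numbered pairs. At P21 the WT libraries had 39016, 36327, 30672 and 39745 CPM, as against 28312, 27688, 27312 and 28994 CPM for KO. At P35 the WT libraries had 41225, 29509, 27899 and 28471 CPM, as against 19917, 15215, 19694 and 19598 CPM for KO. At P21 and P35 the highest KO library lay under the lowest WT library. With CPM scaled by library totals this held at P35 but not at P21, where the highest KO library had 26139.6 CPM and the lowest WT library 25746 CPM.

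The log2 fold change of Atp2a1 was -0.19 ± 0.26 at P1 (SE, adjusted p = 0.803) and -0.39 ± 0.26 at P14 (adjusted p = 0.876), where the replicate block gave -0.41 ± 0.10 (adjusted p = 0.0432), outside the threshold of 0.01. It was -0.36 ± 0.11 at P21 (adjusted p = 0.0426) and -0.75 ± 0.18 at P35, where the adjusted p of 0.0103 was just outside the threshold. At P35 it was called by DESeq2 (adjusted p = 6.94e-06), with RLE size factors (0.00972) and in the fit of all 32 libraries (0.00744), while with library totals it was -0.35 (0.0959). At P1 the value without KO replicate 4 was 0.03 (adjusted p = 0.950). The 3 highest group means were those of WT P21, WT P35 and WT P14, followed by KO P21, KO P14 and KO P35, and each of these overlapped its neighbour; both P1 groups lay far below.

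**Figure D2:**
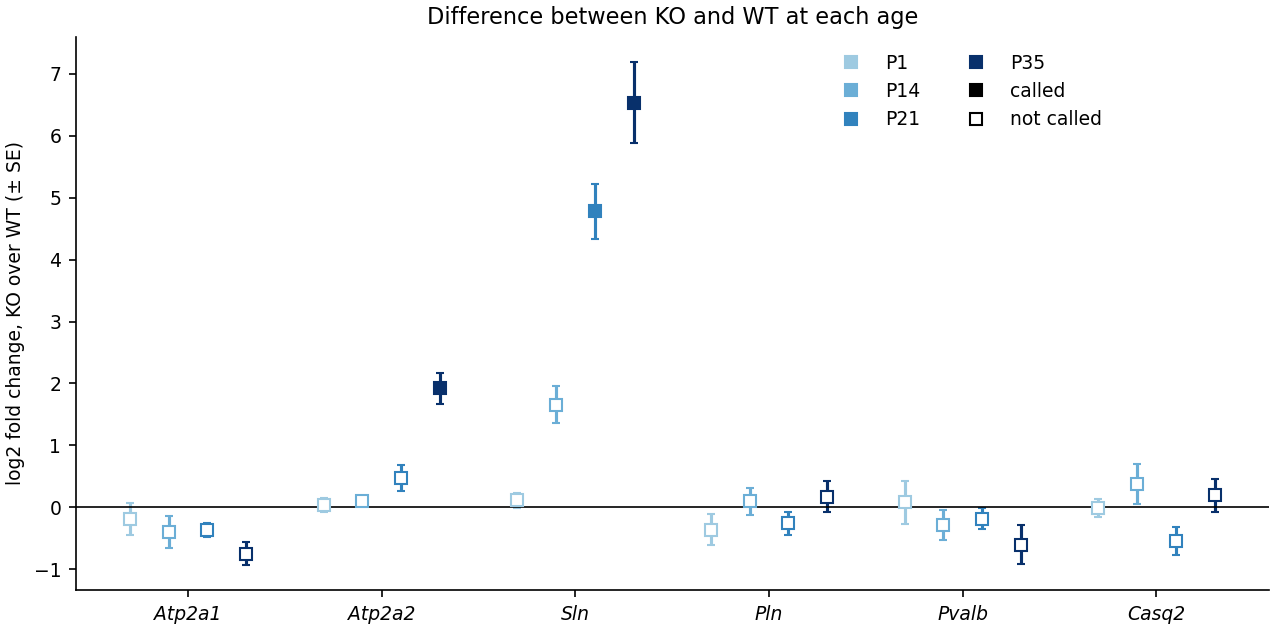
Log2 fold change of KO over WT (± SE, 4 libraries a group) for the 6 genes at each age, with filled squares where the gene was called. Sln moves from 0.11 at P1 to 6.54 at P35 and Atp2a2 from 0.04 to 1.92, and the other 4 genes have open squares at all ages.

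Pln, the second inhibitor, had few counts at P1 and showed no called difference between genotypes. Its level at P1 was 0.276 to 0.446 CPM in WT, against 0.173 to 0.285 CPM in KO, or 23 to 39 counts a library. Libraries of the later ages had 142 to 513 counts. At P14 the libraries of both genotypes lay between 2.49 and 4.50 CPM, and at P21 between 2.91 and 6.59 CPM. At P35 WT libraries had 4.11, 4.03, 8.12 and 5.33 CPM, as against 6.04, 5.28, 7.86 and 4.72 CPM for KO. The log2 fold changes of KO over WT were -0.36 ± 0.25 (SE), 0.10 ± 0.22, -0.26 ± 0.19 and 0.17 ± 0.25 in order of age, with adjusted p of 0.621, 0.985, 0.364 and 0.602.

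Pvalb, the cytosolic buffer of fast fibres, had no called difference at any age. At P1 its level was 35.3 to 63.1 CPM in WT, against 25.3 to 82.0 CPM in KO. WT libraries had 9936, 9238, 12795 and 14205 CPM, as against 6371, 7965, 11076 and 12653 CPM for KO at P14. At P35 WT libraries had 18964, 14831, 8325 and 13937 CPM, as against 11094, 4673, 10236 and 10271 CPM for KO, with the lowest value in KO replicate 2. The ranges at P21 were 5862 to 10378 CPM in WT and 6420 to 8566 CPM in KO. The log2 fold change at P35 was -0.60 ± 0.31 (SE, adjusted p = 0.145), and without that library it was -0.39 (adjusted p = 0.232). At the 3 earlier ages it was 0.08 ± 0.35, -0.28 ± 0.24 and -0.19 ± 0.17, with adjusted p of 0.942, 0.936 and 0.469. At P14 KO was below WT in 4 of 4 pairs, with -0.31 ± 0.09 under the replicate block (adjusted p = 0.0801).

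Casq2, an SR lumen buffer of heart and slow muscle, likewise had no called difference. At P1 it had 721 to 959 CPM in WT and 611 to 947 CPM in KO, and at P14 165 to 347 and 195 to 445 CPM. At P21 WT libraries had 284, 225, 382 and 198 CPM, as against 158, 258, 163 and 164 CPM for KO. At P35 WT libraries had 59.6, 120, 148 and 114 CPM, as against 91.1, 151, 153 and 101 CPM for KO. The log2 fold change was -0.01 ± 0.15 (SE) at P1, 0.38 ± 0.32 at P14, -0.54 ± 0.23 at P21 and then 0.19 ± 0.27, with adjusted p of 0.979, 0.935, 0.122 and 0.595. At P14 KO was above WT in 4 of 4 pairs, and the replicate block gave 0.36 ± 0.09 (adjusted p = 0.0432), not past the threshold. Without WT replicate 1, the WT library at 59.6 CPM, the P35 value was -0.02.

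A change of the KO difference between neighbouring ages was tested by the interaction term of a fit of all 32 libraries, and called at an adjusted p under 0.01. Between P1 and P14 it was called for 0 of the 6 genes and 0.0161% of all genes. From P14 to P21 it was called for Sln alone, beside 0.425% of all genes (0.377% in the higher direction), with a log2 difference of 3.11 ± 0.60 (SE, adjusted p = 0.00627); with same-numbered WT and KO libraries paired by a replicate block it was 2.88 ± 0.54 (adjusted p = 0.0118) and not called. From P21 to P35 it was called for Atp2a2 alone, beside 0.463% of all genes (0.151% in the higher direction), with a difference of 1.43 ± 0.28 (adjusted p = 0.00703). The block, at ages where the numbers were not taken to pair the libraries, gave 1.29 (adjusted p = 0.0166). Both calls were close to the threshold. For Sln, 4 of 16 fits without 1 library kept an adjusted p under 0.01, those without replicates 3 and 4 of WT P14 and of KO P21, and the values ran from 2.62 to 3.36 (adjusted p 0.00177 to 0.0223). For Atp2a2, 7 of 16 such fits did, those without replicates 1, 2 and 3 of WT P21, 2 of KO P21, 2 of WT P35 and 1 and 4 of KO P35. The Atp2a2 value was 1.13 without WT replicate 4 of P21 (adjusted p = 0.0176), 1.09 without KO replicate 2 of P35 (0.0119) and 1.45 with only the 16 libraries of P21 and P35 (0.0558). For Sln the step from P21 to P35 was 1.75 ± 0.63 (adjusted p = 0.138).

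Levels of different genes were set against each other per kilobase of exon (CPM per kb). On that scale Atp2a2 made up 5.79% ± 0.496 (SD, n = 4) of both SERCA transcripts in WT at P1, 0.577% ± 0.152 at P14, 0.288% ± 0.0882 at P21 and last 0.173% ± 0.0406. In KO the share was 7.18% ± 2.07, 0.840% ± 0.308, 0.518% ± 0.0784 and 1.11% ± 0.656. Atp2a1 thus supplied nearly all SERCA transcript after P1 in both genotypes. The log2 ratio of Atp2a2 to Atp2a1 within a library was higher in KO by 0.30, 0.51, 0.88 and 2.58, from the youngest age to the oldest. Libraries of WT and KO did not overlap at P35 and overlapped at the other ages. By an exact two-sided permutation test the p was 0.229, 0.171, 0.0571 and 0.0286, and the last is the smallest that 70 assignments can give; over the 8 ratios tested the adjusted p at P35 was 0.114. At P14, with same-numbered libraries taken as pairs, the ratio was higher in KO in 4 of 4. The exact two-sided permutation p by sign flips was 0.125, the smallest that 4 pairs allow.

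Sln stood at 249 ± 15.4 (SD, n = 4) per 1000 of the summed pump level per kb in WT at P1, and at 0.937 ± 0.503, 0.239 ± 0.0406 and 0.180 ± 0.0712 at the later ages. In KO it stood at 337 ± 140, 4.02 ± 2.23, 8.32 ± 5.39 and 29.0 ± 19.3. The KO libraries of P35 ranged from 6.89 to 47.1 per 1000, above all WT libraries after P1 and below all libraries of P1. Pln stayed between 0.0766 and 0.498 per 1000 in every library.

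**Figure D3:**
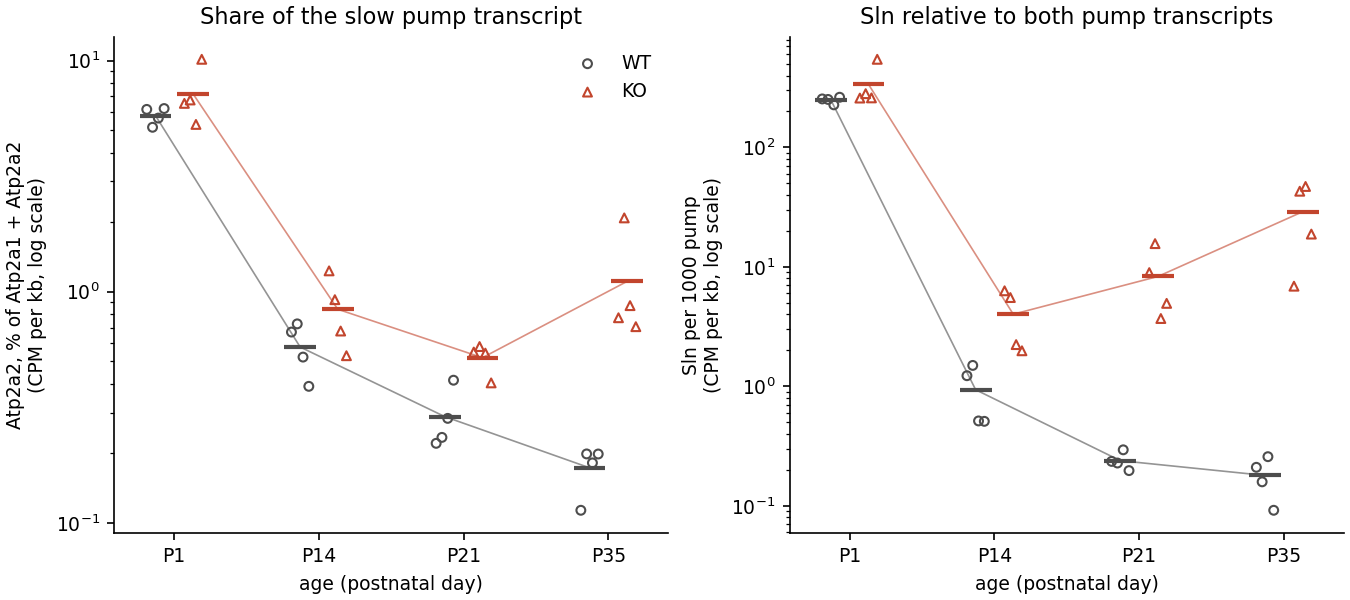
Left, the share of Atp2a2 in both SERCA transcripts in percent; right, Sln per 1000 of the summed pump level; both from CPM per kb, on log axes, by library and age, with WT as circles, KO as triangles and bars at the means. At P35 the Atp2a2 share spans 0.113 to 0.199% in WT and 0.706 to 2.09% in KO.

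The lumen buffers gave another ratio. Casq2 per kb was near Casq1 per kb at P1, at 44.5% ± 0.755 (SD, n = 4) of both in WT and 48.9% ± 2.84 in KO, and fell to 1.59% ± 0.861 in WT and 2.74% ± 1.26 in KO at P35. The log2 ratio of Casq2 to Casq1 was higher in KO by 0.26 at P1 (exact permutation p = 0.0286, the smallest possible, adjusted p = 0.114) with no overlap, and without KO replicate 4 by 0.18. At P14, P21 and P35 it differed by 0.64, -0.16 and 0.87 (exact permutation p = 0.257, 0.714 and 0.143). It was higher in KO in 4 of 4 pairs at P14, with a paired exact permutation p of 0.125. Casq1 itself had log2 fold changes of -0.37 ± 0.12 (SE, adjusted p = 0.0464) at P21 and -0.64 ± 0.21 (adjusted p = 0.0323) at P35.

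Slow fibre genes moved with Atp2a2. Of the 8 genes in the slow fibre list (myosin, light chain and troponin genes among them), 0, 0, 0 and 6 were called higher in KO from P1 to P35 in order of age, with a median log2 fold change of 4.26 at P35. Their summed level at P35 was 99.7, 244, 255 and 176 CPM in the WT libraries, against 1194, 2084, 1227 and 968 CPM in those of KO. At P21 it was 407, 388, 469 and 1150 CPM in the WT libraries, against 886, 1162, 957 and 750 CPM in those of KO, so the WT library that was high in Atp2a2 was also the one high in slow fibre genes. KO replicate 2 at P35 was the highest of all libraries in both. Sln did not share this order throughout. WT replicate 4 at P21 had 2.98 CPM of Sln, the lowest of its group. The WT libraries of P14, with slow fibre sums of 1129 to 1486 CPM, had 6.09 to 12.5 CPM of Sln. At P35 the KO library highest in Sln was replicate 3 (355 CPM). Within each genotype at P14, however, the libraries had the same order in Sln and in the slow fibre sum. KO replicate 2 at P21 was the highest of its group in both. Of the 8 fast fibre genes, 1 was called lower at P21 and 1 at P35. Of all genes, 4.67% were called in either direction at P21 (3.18% higher), and at P35 8.49% were called higher and 7.52% lower. The median log2 fold change of the fast fibre list was -0.28 at P21 and -0.47 at P35. Its summed level was 108616 to 145741 CPM in WT and 99170 to 112446 CPM in KO at P21. At P35 it was 88153 to 130661 CPM in WT and 57538 to 87846 CPM in KO, with no overlap. At P21 the macrophage list was called higher in 3 of 6 genes, with summed levels of 42.5 to 49.8 CPM in WT and 63.5 to 78.5 CPM in KO and no overlap, and the heart list in 1 of 4 tested (18.3 to 33.9 CPM in WT and 19.0 to 27.6 CPM in KO). At P35 the developmental myosin list was called higher in 2 of 2 genes, the adipocyte list in 4 of 5 (summed level 2.24 to 9.69 CPM in WT and 14.4 to 57.1 CPM in KO) and the macrophage list in 4 of 6 (43.4 to 55.5 CPM in WT and 64.8 to 95.5 CPM in KO). The endothelial list was called lower in 2 of 5 genes at P35, the heart list higher in 1 of 4 tested, and the Schwann cell, smooth muscle and blood lists in 0 of 5 each. The part of these lists in the results for the 6 genes was not tested.

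**Figure D4:**
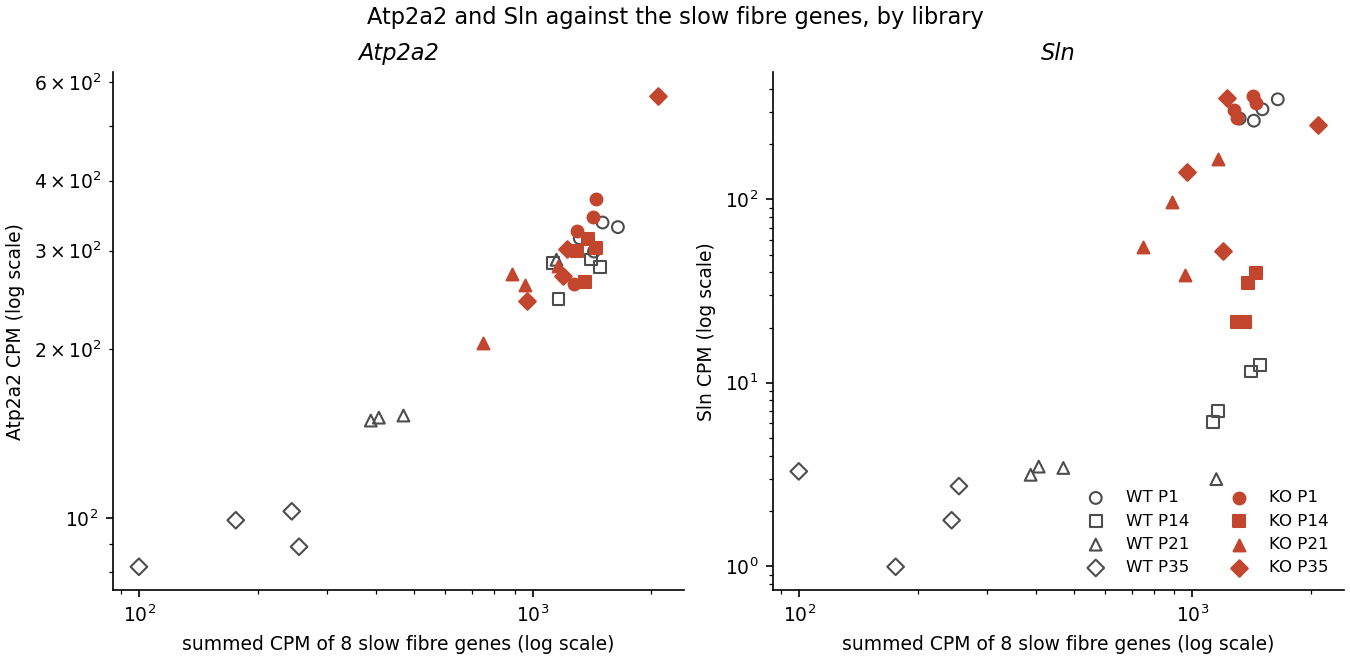
Atp2a2 (left) and Sln (right) in CPM against the summed CPM of 8 slow fibre genes, on log axes, 1 point a library, with open symbols for WT, filled for KO and a shape for each age. The Atp2a2 points run along 1 band that holds WT replicate 4 of P21 near the KO libraries, whereas that library has 2.98 CPM of Sln and the KO libraries of P21 have 38.5 to 165 CPM.

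The genes whose log2 CPM ran most like each member over the 32 libraries, among 8531 genes with a mean of at least 10 CPM, are given as a description. For Atp2a2 they were the slow troponin genes Tnnt1 (Pearson r = 0.957), Tnnc1 (0.944) and Tnni1 (0.931). Atp2a1 was nearest to Hrc (0.995), Jph2 (0.994) and Mfn2 (0.994), of which Hrc and Jph2 encode SR proteins. Pvalb was nearest to Trdn (0.997), the gene of the SR protein triadin, followed by Nctc1 (0.996) and Vapb (0.995). For Sln they were Lmna (0.965), Gm28653 (0.958) and Arf6 (0.952), for Pln Coq10a (0.980), 1700021F05Rik (0.979) and Ndufs4 (0.979), and for Casq2 Clcn5 (0.962), Arhgap28 (0.956) and Pcdh18 (0.954). These libraries share their ages, and the large step from P1 to P14 enters every one of the values.

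Age within a genotype was compared next, and all of the 6 genes but Atp2a2 were called between P1 and P14 in both genotypes. In WT, 5 of the 6 were called between P1 and P14, 3 of them higher and 2 lower, beside 55.1% of all genes (24.7% higher and 30.4% lower). Pvalb rose 242-fold (log2 fold change 7.92 ± 0.29, SE, adjusted p = 4.39e-08), from between 35.3 and 63.1 CPM at P1 to between 9238 and 14205 CPM at P14. Atp2a1 rose 9.39-fold (3.23 ± 0.22, adjusted p = 8.35e-07) and Pln 9.85-fold (3.30 ± 0.23, adjusted p = 1.19e-06). Sln fell by 5.03 ± 0.25 on the log2 scale (adjusted p = 1.65e-07) and Casq2 fell by 1.69 ± 0.23 (adjusted p = 8.72e-05). Atp2a2 had a value of -0.23 ± 0.07 (adjusted p = 0.0166), and scaled by library totals, where the median of all genes was -0.85, it was -0.99 and past the threshold.

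In KO, the same 5 genes were called between P1 and P14 in the same directions, beside 52.6% of all genes (23.5% higher and 29.1% lower). The log2 fold changes were 7.56 ± 0.51 (SE) for Pvalb, 3.03 ± 0.37 for Atp2a1, 3.76 ± 0.26 for Pln, -3.48 ± 0.23 for Sln and -1.30 ± 0.27 for Casq2, with adjusted p from 1.64e-06 to 0.00154. Atp2a2 had -0.17 ± 0.13 (adjusted p = 0.253), and with library totals, where the median of all genes was -0.80, it was -0.86 (adjusted p = 0.000228) and past the threshold.

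After P14 fewer of the 6 genes were called. From P14 to P21 in WT, Sln alone was called, beside 5.53% of all genes (2.60% lower), and fell by 1.52 ± 0.23 on the log2 scale (adjusted p = 0.00245); in the fit of all 32 libraries the adjusted p was 0.0137. Over the same step in KO no member was called, beside 7.04% of all genes, and Sln had 1.57 ± 0.42 (adjusted p = 0.0233), which DESeq2 (0.00907) and the fit of all 32 libraries (0.00461) called. Without KO replicate 4 of P14, Casq2 was called in KO (-1.02, adjusted p = 0.0091). Pln had 0.75 ± 0.19 in WT over this step (adjusted p = 0.0186) and 0.95 without WT replicate 4 of P14 (adjusted p = 0.00186), past the threshold. Atp2a2 in WT had -0.58 ± 0.21 (adjusted p = 0.0684) and was called without WT replicate 4 of P21 (-0.86, adjusted p = 0.000822).

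From P21 to P35 no member was called in WT, beside 2.45% of all genes, or in KO, beside 4.01%. In WT Casq2 had -1.32 ± 0.29 (SE, adjusted p = 0.0158) and Atp2a2 -1.01 ± 0.21 (adjusted p = 0.0148), and both were called by DESeq2, without the filter on low counts and in the fit of all 32 libraries. Without WT replicate 4 of P21 the Atp2a2 value was -0.72 (adjusted p = 0.00557), past the threshold. In KO Atp2a1 had -0.58 ± 0.12 (adjusted p = 0.0105), Sln 1.19 ± 0.58 (0.159) and Atp2a2 0.46 ± 0.25 (0.205); without KO replicate 2 of P35 the Atp2a2 value was 0.11 (adjusted p = 0.525). Comparisons of neighbouring ages share the libraries of the age between them.

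Other calcium handling genes were described by a list of 32 genes, of which 30 were matched. KO was called higher or lower in 0 of 29 tested at P1, 0 of 29 at P14, 1 of 27 at P21, and 8 of 26 at P35, beside 0.0442%, 0.0318% and 4.67% of all genes at the first 3 ages and 8.49% higher and 7.52% lower at P35. The median log2 fold change was -0.10, -0.09, -0.22 and -0.30. At P35 the split was 1 higher and 7 lower, while with library totals it was 4 higher and 1 lower with a median of 0.11, so the direction of this list depends on the scaling. Camk2d, a calmodulin dependent kinase that can phosphorylate phospholamban, was higher in KO at P21 (log2 fold change 0.89 ± 0.12, SE, adjusted p = 0.00136) and at P35 (1.00 ± 0.13, adjusted p = 0.000364). At P35 it had 74.2 ± 12.3 CPM (SD, n = 4) in WT and 146 ± 13.9 CPM in KO. Its relatives Camk2a and Camk2g were called lower at P35, with values of -0.82 ± 0.17 and -0.70 ± 0.10. Atp2b3, which encodes a plasma membrane calcium pump, was lower in KO at P35 by 1.46 ± 0.14 on the log2 scale (adjusted p = 0.000118). It had 16.7 ± 2.58 CPM in WT and 5.96 ± 0.773 CPM in KO, and was the gene still called lower with library totals. The plasma membrane pump Atp2b4 (-0.77 ± 0.14), the calmodulin gene Calm3 (-0.86 ± 0.16) and the SR lumen gene Srl (-0.61 ± 0.13) were called lower at P35 with TMM scaling. None of the SERCA regulators tested at P35 (2 of the 3 matched) was called.

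**Figure D5:**
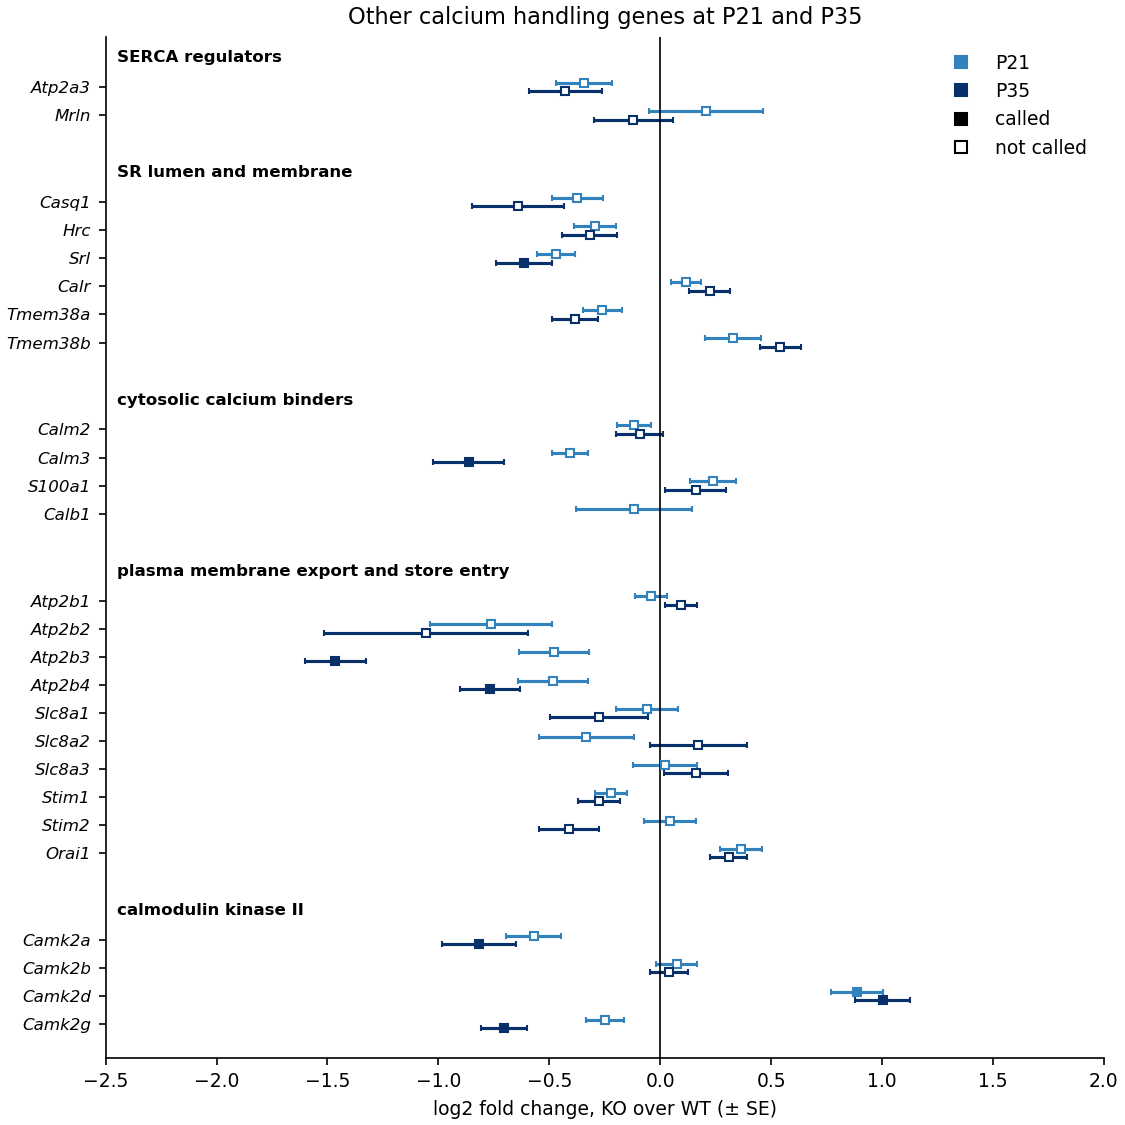
Log2 fold change of KO over WT (± SE, TMM scaling) at P21 (lighter) and P35 (darker) for other calcium handling genes tested at either age, grouped by role, with filled squares where the gene was called. Camk2d is the gene called higher at both ages, and 6 filled squares at P35 lie on the lower side; with library totals the split over the whole list becomes 4 higher and 1 lower.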

How the data were processed

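RNA of TA muscle was measured in 32 libraries, 4 for each genotype and age, with groups and replicate numbers taken from the sample labels. The authors selected poly(A) RNA, made directional paired-end libraries, aligned the reads to GRCm38 with STAR 2.6.1 and deposited expected counts per gene (RSEM 1.2.22 in the submitters' processing notes, while the methods name HTSeq), with no scaling between libraries and no pooling. The notes also name DESeq2. The annotation release and the use of strand are not given in the sources used here. Of the values, 4.26% were not whole, and the table held 0 columns that were not used. Of 54838 genes, 54723 matched a symbol in GENCODE M21, which also gave coordinates and exon lengths.

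Expected counts were rounded. Genes were filtered by filterByExpr and libraries scaled by TMM, and each pair of groups (8 libraries) was compared by the two-sided quasi-likelihood test of edgeR 4.0.16 in R 4.3.3, with p-values adjusted by Benjamini-Hochberg across every tested gene. A gene was called at an adjusted p under 0.01 with a fold over 1.5 either way (0.585 as log2). Interactions took all 32 libraries and no fold threshold. Printed CPM were scaled over all 32 libraries at once, so group means can differ slightly from the fitted fold changes. Ratios were tested by exact permutation, with adjustment over 8 tests, and at P14 also by sign flips of the pairs, added after seeing the data. The labels do not give the source animals of the libraries, so p-values measure the spread between these samples. No pair of replicates lay within sampling noise. At this depth under 3 counts cannot be told from absence, and reads without molecular identifiers give counting error only.

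The fits were tested on simulated data first. Of simulated 2-fold changes, 66.7% were called for KO against WT at P35, 60.8% at P14 and 58.2% for the interaction of P35 with P21. For 4-fold changes these shares were 93.6%, 93.8% and 77.3%. Many changes of 2-fold or less can thus go without a call.

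Same-numbered WT and KO libraries deviated together at P14 (correlations of 0.42, 0.47, 0.30 and 0.73 for replicates 1 to 4) and not in every pair of the other comparisons. The number was therefore taken to pair libraries at P14 alone. The labels state no pairing, so the pairs rest on these same data. Within each genotype at P14, replicates 1 and 2 were also the most alike. Pairs were not told apart from a gradient shared by both genotypes.

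The members, lists and tests were chosen with earlier results of these data known. The values of 1 gene of the calcium list, which its counts include, are not reported here. The genes named were all members, Mtm1, the other genes of the calcium list called at P21 or P35, the 3 genes nearest to each member, while of the markers the rule allowed Myh7, Myh4 and Myh6; Tnnt1, Tnnc1, Tnni1, Casq1, Cep85l and the heart genes were named for a ratio, an overlap or the check of the tissue. Promoters came from RefSeq (GRCm38.p6). Alternatives were DESeq2 1.42.0, RLE size factors, library totals, other filters, the replicate block, all libraries in 1 fit, other thresholds and each library left out in turn. Tables used python 3.11.15 and pandas 2.3.3.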

Additional observations from a re-analysis of the deposited data

Results flagged for a closer look

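Among 48 groups of 4 libraries (6 genes in 8 groups), 7 held a library far from the other 3 by Dixon's criterion at the 95% level, where chance gives about 1 in 20 groups, or 2.4. These were Atp2a1 in WT replicate 1 at P35 (41225 CPM) and in KO replicate 2 at P35 (15215 CPM), Atp2a2 in WT replicate 4 at P21 (289 CPM), Pln in WT replicate 2 at P1 (0.446 CPM) and in WT replicate 4 at P14 (4.37 CPM), Pvalb in KO replicate 2 at P35 (4673 CPM) and Casq2 in KO replicate 2 at P21 (258 CPM). KO replicate 2 at P35 was low in Atp2a1 and Pvalb and had the highest Atp2a2 level of its group (567 CPM).

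The KO difference of Sln changed between P14 and P21 by 3.11 on the log2 scale, and that of Atp2a2 between P21 and P35 by 1.43, both by the interaction test. Over the first step Sln fell in WT by 1.52 on the log2 scale and had a value of 1.57 in KO, and over the second Atp2a2 had -1.01 in WT and 0.46 in KO.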

How the results depend on the processing

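Of 1470 values of single genes under the alternatives, 1388 kept their direction and their side of the threshold, 23 passed it, 26 lost it and 33 changed sign. Counts of the 6 genes called that moved are given with the number of all genes called by the same rule in parentheses. With DESeq2 the count was 1 for KO against WT at P14 (53 of all genes), 3 at P35 (2997), 2 for WT P21 against P14 (1340), 2 for WT P35 against P21 (851), 1 for KO P21 against P14 (1765) and 1 for KO P35 against P21 (1199). The fit of all 32 libraries gave 3 for KO against WT at P35 (3349), 0 for WT P21 against P14 (1270), 2 for WT P35 against P21 (744) and 1 for KO P21 against P14 (1703). RLE size factors gave 3 for KO against WT at P35 (2536), and library totals gave 6 for P14 against P1 in WT (11622) and in KO (11243). Without a filter on low counts WT P35 against P21 had 2 (468). At an adjusted p under 0.05 with no fold threshold there were 2 for KO against WT at P21 (3187 of 15179 genes), 3 at P35 (6462 of 15595), 6 for WT P14 against P1 (13838 of 17435), 2 for WT P21 against P14 (3929 of 15337), 2 for WT P35 against P21 (2656 of 15039), 2 for KO P21 against P14 (4299 of 15585) and 1 for KO P35 against P21 (3755 of 15734). With only the 16 libraries of the ages concerned the interaction at P35 against P21 had 0 (9).

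The replicate block gave 1 call for KO against WT at P14, 0 for WT P21 against P14 (Sln, adjusted p = 0.0137), 1 for KO P21 against P14 (Sln, adjusted p = 0.00667), and 0 for the interactions of Sln at P21 (2.88, adjusted p = 0.0118) and Atp2a2 at P35 (1.29, adjusted p = 0.0166); it changed no other call. Outside P14 the replicate numbers were not taken to pair the libraries. The cause of these changes was not tested.

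Leaving out each library in turn gave counts from 1 to 2 for KO against WT at P21, 1 to 2 for WT P21 against P14, 0 to 1 for WT P35 against P21, 0 to 1 for KO P21 against P14 and 0 to 1 for the interactions of P21 with P14 and of P35 with P21.

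The signs that turned belonged to values that were not called. With library totals Casq2 at P1 was 0.0090, Pvalb at P21 0.012 and Casq2 in WT P21 against P14 -0.065. With the block Pvalb at P1 was -0.041. The change of the Atp2a1 difference from P14 to P21 was -0.0070 with DESeq2 and with RLE size factors, -0.021 without the filter and -0.00051 without mitochondrially encoded genes. Without 1 library, values at P1 ran from -0.38 to 0.028 for Atp2a1, -0.036 to 0.13 for Atp2a2, -0.28 to 0.30 for Pvalb and -0.12 to 0.088 for Casq2. Pln ran from -0.061 to 0.28 at P14, from -0.00036 to 0.43 at P35 and from -0.29 to 0.11 for WT P35 against P21, and Casq2 from -0.019 to 0.36 at P35 and -0.086 to 0.31 for WT P21 against P14. The interactions ran from -0.017 to 0.15 (Atp2a2) and -0.57 to 0.0080 (Pvalb) for P14 with P1, and from -0.14 to 0.17 (Atp2a1) and -0.072 to 0.25 (Pvalb) for P21 with P14. A comparison with libraries of 1 sex alone could not be added, as the libraries did not differ in sex. Pln at P1 rested on under 40 counts a library, which limits its precision.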
